A study of Homo sapiens with 15 samples.

Results

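The genes described here are 10 secreted regulators of inflammation: the chemokines CXCL1, CXCL2, CXCL3, CXCL8 (formerly IL8) and CCL20, the interleukin-1 genes IL1A, IL1B and IL1RN, and the cytokines IL6 and LIF. They were chosen by symbol, with earlier results of these data known. Their probes were found through the RefSeq accession that the scanner files give for each non-control spot. This gave 14 probes on 50 spots for the 10 genes, out of 42405 non-control probes and 19483 genes with a matched probe. In the study, PE/CA-PJ41, an immortalised cell line from a human oral squamous cell carcinoma, was compared in 2 stable forms by 1-colour gene expression microarray. NCE (non-cytoglobin expressing) cells carried the empty transfection vector per the labels, although the study's text also calls this control untransfected, and CYGB+ cells carried pCMV6-Neo with the cDNA of human cytoglobin, a haem-containing globin, behind the vector's viral promoter. Cells of both groups stood for 24 hours in complete medium before RNA was taken, and neither group received any other agent. The array work used a single cytoglobin clone according to the study's methods, so cytoglobin and the history of that clone cannot be told apart. Each group had 3 biological replicates, measured on 9 NCE arrays and 6 CYGB+ arrays.

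As background, CXCL1, CXCL2, CXCL3 and CXCL8 are neutrophil-attracting chemokines that act through the receptors CXCR1 and CXCR2, and CCL20 attracts CCR6-bearing lymphocytes and dendritic cells. IL-1 alpha and IL-1 beta signal through IL1R1 with IL1RAP, and switch on NF-kB, a transcription factor that in turn induces most of these genes, while IL1RN encodes a secreted antagonist of the same receptor. IL-6 and LIF share the signalling subunit gp130, encoded by IL6ST, and act through STAT3. Squamous carcinoma cells of the head and neck are known to secrete several of these factors.

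On the 15 arrays 48.0% to 57.2% of probes were well above background. The green channel was read throughout, because the labels name cyanine 3 for every sample, although the study's methods name cyanine 5 for control cells. The arrays lay on 2 slides: slide 1 held 8 NCE arrays, and slide 2 held 1 array of NCE replicate 1 together with all 6 CYGB+ arrays. Local background was higher on slide 2, with array medians of 37 to 43 intensity units against 24 to 29 on slide 1, and on slide 2 between 42.0% and 46.4% of spots were dimmer than their local background against at most 0.31% on slide 1. The probe for CYGB, the transfected gene, was well above background on every array and did not separate the groups, with normalised log2 intensities of 11.85, 12.15 and 11.96 in NCE and 11.38, 12.44 and 11.97 in CYGB+ (difference −0.05, limma adjusted p = 0.911). Its position within the CYGB transcript is not given in the sources used here, so it is not known whether it reads the transfected cDNA, and the group names below are those of the labels. The study itself reports high cytoglobin expression in the clone, assessed by qPCR and in-cell ELISA. It describes the parent line as not expressing cytoglobin, and the source of the probe's signal in NCE was not tested. All 7 epithelial markers were well above background on every array, with KRT6A called lower and summed log2 levels of 15.26 to 15.31 in NCE and 15.08 to 15.62 in CYGB+. Among leukocyte markers, PTPRC, CD3E and ITGAM fell below the detection filter, while CD14, CD68 and CSF1R were well above background on every array. CSF1R was called higher, and CD14 (log2 difference −0.46) and CD68 (0.22) were not called. The summed log2 level of the 6 leukocyte markers used here was 10.32 to 10.54 in NCE and 10.52 to 10.75 in CYGB+. Of 8 fibroblast markers COL3A1, DCN, LUM, PDGFRB and THY1 fell below the filter, the summed level was 10.45 to 10.50 in NCE and 10.58 to 10.87 in CYGB+, FAP was called higher and COL1A2 lower. Of 4 endothelial markers only CDH5 passed the filter, with sums of 8.12 to 8.65 and 8.11 to 8.25. Both groups were forms of the PE/CA-PJ41 line, so these levels are given as RNA of the cultures and not as shares of cell types. The source of the marker signal and its part in the results below were not tested.

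In the arrays labelled CYGB+, CXCL2, IL6 and LIF were up-regulated relative to those labelled NCE, by 3.17-fold, 2.68-fold and 1.97-fold. The other 7 genes did not pass the test, which asked for a limma adjusted p under 0.05 over all 22179 probes tested. A gene was judged by its brightest probe, and by this rule 3 of 10 genes were called higher, where 6.57% of all 12871 genes tested were. None of the 10 was called lower, against 6.67% of all genes. The methods' t-test, adjusted in the same way, called none of the 10 in either direction, with an adjusted p of 0.175 for CXCL2, 0.0581 for IL6 and 0.126 for LIF. At an unadjusted limma p under 0.05, 4 of the 10 were higher, CXCL3 being the addition, where 15.8% of all genes were, and none was lower, where 16.1% were. The log2 difference was above 0 in 9 of 10 genes, as it was in 51.3% of all genes, and its median was 0.67 against 0.01. Counted by probe, 3 of the 13 member probes tested were called higher, against 5.56% of all probes, and none lower, against 5.37%. All 3 CYGB+ replicates lay above all 3 NCE replicates in the same 3 genes, where 18.4% of all genes did so. The genes were chosen with earlier results of these data known and varied together between replicates. The shares therefore describe these genes and are no independent comparison with all genes.

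**Figure D1:**
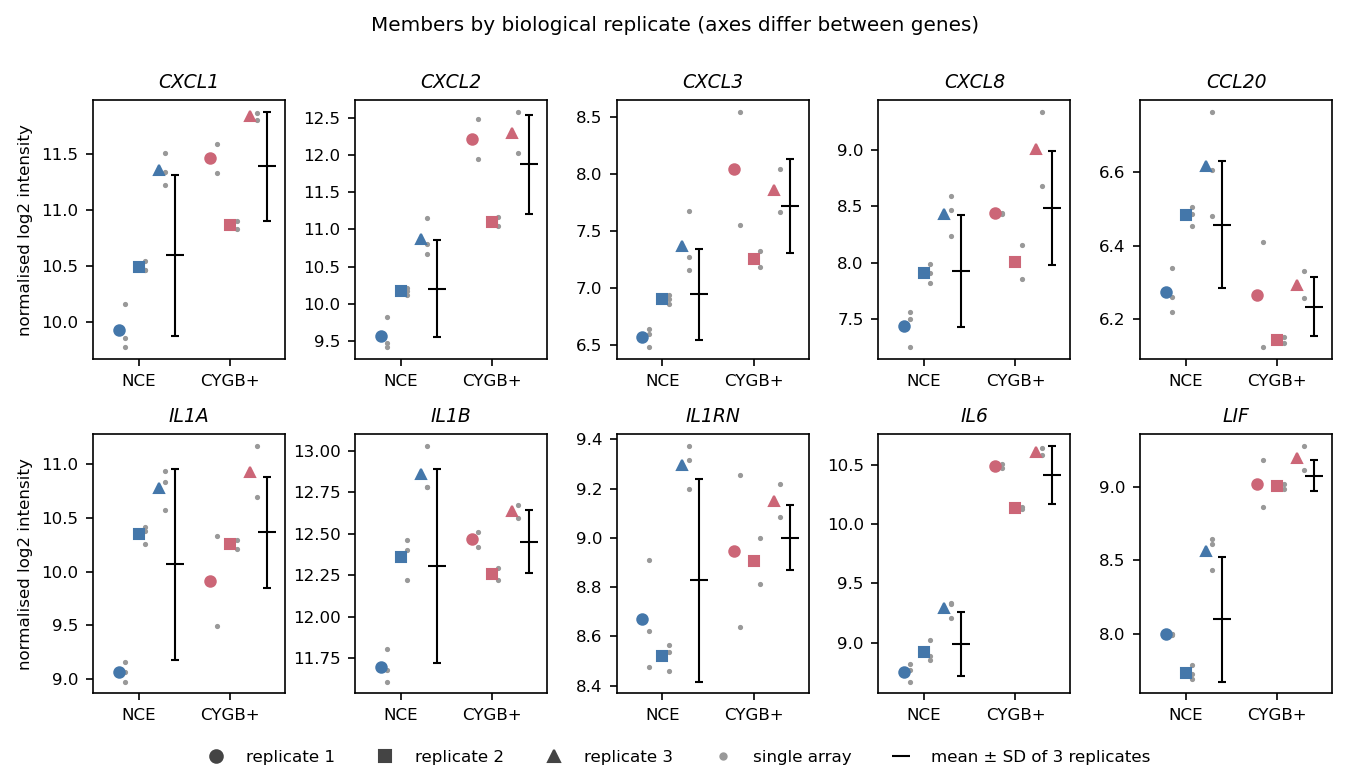
Normalised log2 intensity (y axis, scale differing by gene) of the brightest probe of each gene in NCE (blue) and CYGB+ (red), with a symbol for each biological replicate, grey dots for single arrays and a bar for the mean ± SD of 3 replicates. Only CXCL2, IL6 and LIF have every CYGB+ replicate above every NCE replicate, and NCE replicate 3 is the highest NCE point in every panel.

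Since NF-kB induces most of these genes, the bases just before their annotated starts are shown. Each stretch of 80 bases runs 5′ to 3′ on the strand of the gene from 100 to 21 bases before the start, taken from RefSeq on GRCh38.p14: CXCL1 at chr4:73869293-73869372 (plus strand), CXCL2 at chr4:74099216-74099295 (minus), CXCL3 at chr4:74038710-74038789 (minus), CXCL8 at chr4:73740469-73740548 (plus), CCL20 at chr2:227813742-227813821 (plus) and IL6 at chr7:22727100-22727179 (plus). Capitals mark matches to the NF-kB letters GGNNTTNCC on either strand, and in CCL20 they join a pair of overlapping matches on the opposite strand.
CXCL1: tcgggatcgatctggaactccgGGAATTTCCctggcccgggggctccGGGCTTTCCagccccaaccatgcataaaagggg
CXCL2: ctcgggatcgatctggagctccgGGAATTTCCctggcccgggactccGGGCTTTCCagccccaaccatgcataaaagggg
CXCL3: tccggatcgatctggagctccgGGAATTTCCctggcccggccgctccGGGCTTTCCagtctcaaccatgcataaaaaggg
CXCL8: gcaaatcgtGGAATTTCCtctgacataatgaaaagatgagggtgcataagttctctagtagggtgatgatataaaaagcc
CCL20: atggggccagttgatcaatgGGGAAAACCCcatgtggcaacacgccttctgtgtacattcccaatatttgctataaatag
IL6: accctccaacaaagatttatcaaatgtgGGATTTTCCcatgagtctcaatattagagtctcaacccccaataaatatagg

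The stretches of CXCL1, CXCL2 and CXCL3 were near copies, with 95.1% identity between CXCL1 and CXCL2, 91.2% between CXCL1 and CXCL3 and 90.1% between CXCL2 and CXCL3. Against CXCL8, which lies on the same chromosome, the identity was 42.5% to 45.3%. The NF-kB letters stood at −78 and −53 in CXCL1 and CXCL3 and at −77 and −53 in CXCL2, counting back from the start, and at −91 in CXCL8 and −72 in IL6. For 9 of the genes the table held 12 windows of the 250 bases before a start, and 7 of these 12 held the NF-kB letters, as did 14.98% of all 35116 windows. The windows of IL1A and IL1B held none, and 1 of the 3 windows of IL1RN did. The AP-1 letters TGANTCA, on either strand, were found for CXCL8, IL1A and IL1RN, and in 6.57% of all windows. The TATA box letters TATAAA were found for CXCL8, CCL20, IL1A and IL1RN, and in 10.72% of all windows, and no match overlapped one of another motif. CXCL2 passed the test while CXCL1 and CXCL3, with nearly the same stretch, did not, and a match is only a description of the letters. LIF was not among the windows.

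**Figure D2:**
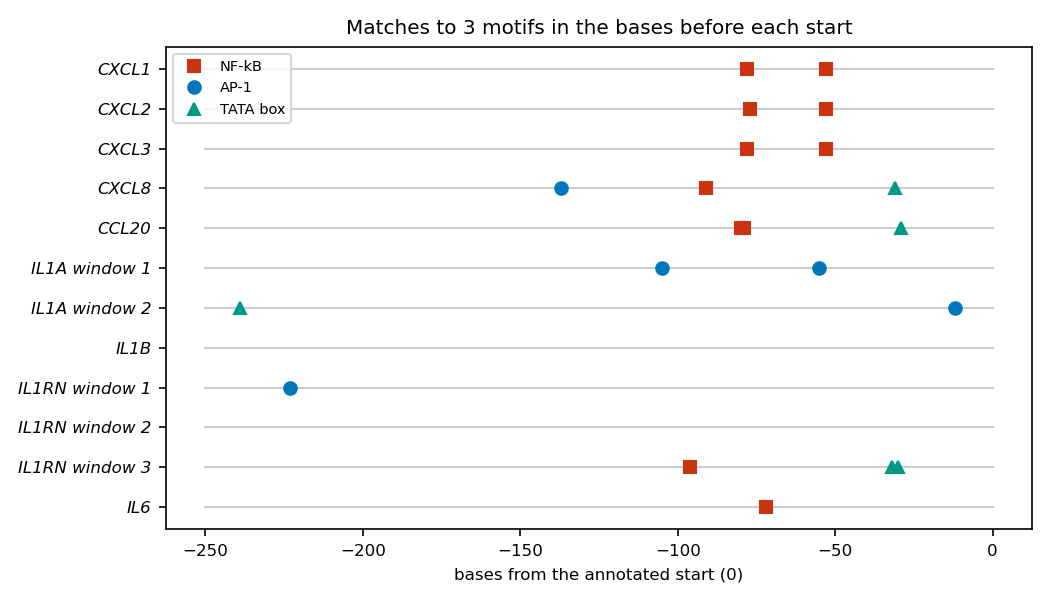
Positions of matches to the NF-kB (red squares), AP-1 (blue circles) and TATA box (green triangles) letters in the 250 bases before each annotated start, x axis in bases from the start. CXCL1, CXCL2 and CXCL3 share a pair of NF-kB matches, and IL1B has no match of any kind.

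Among the CXC chemokines, CXCL2, a neutrophil attractant also called MIP-2 alpha, stood 17th of 12871 genes in the order of log2 differences from the most positive down. Its normalised log2 intensity was 9.57, 10.17 and 10.88 in NCE replicates 1, 2 and 3, and 12.21, 11.11 and 12.30 in the CYGB+ replicates. The lowest CYGB+ replicate, number 2, was only just above the highest NCE replicate, number 3. The group means were 10.21 ± 0.65 and 11.87 ± 0.66 (SD, n = 3 each), and the difference was 1.67 ± 0.41 on the log2 scale (SE), or 3.17-fold with a 95% interval of 1.63 to 6.16 (limma adjusted p = 0.0437). A second CXCL2 probe gave 8.61, 9.24 and 9.67 in NCE and 10.26, 9.91 and 10.62 in CYGB+. Its groups did not overlap either, and its difference of 1.08 ± 0.29 just missed the threshold (adjusted p = 0.0553), passing it with the replicate number as a block (adjusted p = 0.0247). The call on the brighter probe was lost on leaving out any of 5 replicates, in fits with fewer replicates. Without NCE replicate 1, 2 or 3 the differences were 1.35, 1.65 and 2.00 (limma adjusted p = 0.104, 0.141 and 0.0563). Without CYGB+ replicate 1 or 3 they were 1.5 and 1.45 (limma adjusted p = 0.0897 and 0.103).

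CXCL1, which acts on the same receptor, was less clearly separated. Its brightest probe gave 9.93, 10.49 and 11.36 in NCE and 11.47, 10.87 and 11.84 in CYGB+, so that CYGB+ replicate 2 fell below NCE replicate 3. The difference was 0.80 ± 0.38 (adjusted p = 0.227), with a 95% interval of −0.10 to 1.70. A second CXCL1 probe gave 0.84 ± 0.29 (adjusted p = 0.11), again with overlapping groups, and passed with the replicate number as a block (adjusted p = 0.0383).

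In CXCL3 and CXCL8, as in CXCL1, NCE replicate 1 was the lowest and NCE replicate 3 the highest of its group. CXCL3 was at 6.57, 6.90 and 7.36 in NCE and 8.05, 7.25 and 7.86 in CYGB+, a difference of 0.77 ± 0.26 (adjusted p = 0.104). The 2 arrays of CYGB+ replicate 1 disagreed by more than those of any other replicate of CXCL3, with an SD of 0.71 between them. CXCL8, the best known neutrophil attractant in humans, was at 7.44, 7.91 and 8.43 in NCE and 8.44, 8.01 and 9.01 in CYGB+. Here NCE replicate 3 equalled CYGB+ replicate 1 to within 0.01, and the difference of 0.56 ± 0.31 did not pass (adjusted p = 0.295). Since CXCL1, CXCL2 and CXCL3 are closely related in sequence and probe sequences were not used here, how far their probes read each other's transcripts was not tested.

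CCL20, the CC chemokine of the set, was the only one of the 10 genes with a difference below 0. It was dim, well above background on 7 of 9 NCE arrays and on 3 of 6 CYGB+ arrays. Its values were 6.27, 6.48 and 6.62 in NCE and 6.27, 6.14 and 6.29 in CYGB+, which overlapped. The difference was −0.22 ± 0.11 (adjusted p = 0.255).

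The interleukin-1 genes did not differ beyond the spread of their replicates. IL1B, whose product is cut to its active form by caspase-1, was at 11.70, 12.36 and 12.86 in NCE and 12.47, 12.26 and 12.64 in CYGB+. The NCE replicates bracketed all 3 CYGB+ replicates, and the difference was 0.15 ± 0.28 with a 95% interval of −0.50 to 0.79 (adjusted p = 0.771). IL1A, which is active without that cut and is released from damaged epithelial cells, was at 9.07, 10.35 and 10.78 in NCE and 9.91, 10.26 and 10.93 in CYGB+. In IL1A the 95% interval ran from −0.76 to 1.35 around a difference of 0.30 ± 0.45 (adjusted p = 0.71), which allows a level up to 2.56-fold higher in CYGB+. Without NCE replicate 1 both differences turned, to −0.20 for IL1A and −0.16 for IL1B. IL1RN, the receptor antagonist, was at 8.67, 8.52 and 9.30 in NCE and 8.94, 8.91 and 9.15 in CYGB+ on its brightest probe (difference 0.17 ± 0.20, adjusted p = 0.622). A second IL1RN probe, well above background on 9 NCE arrays but on 4 of 6 CYGB+ arrays, differed by −0.11 ± 0.10 (adjusted p = 0.519), so the probes had opposite signs and neither passed.

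IL6, the main inducer of the acute-phase response, was the most firmly separated of the 10 genes, in that its adjusted p was the lowest and it passed in each of the 6 fits that left out a replicate. It was at 8.76, 8.92 and 9.29 in NCE and 10.49, 10.14 and 10.61 in CYGB+, so the lowest CYGB+ replicate was well clear of the highest NCE replicate. The difference was 1.42 ± 0.18, or 2.68-fold with a 95% interval of 2.01 to 3.58 (adjusted p = 0.00701), and it was 31st from the top among all genes. The difference between replicates of the same number was 1.73, 1.22 and 1.32, though the numbers are not shown to pair the samples. The SD between the arrays of a replicate was at most 0.09 for IL6.

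LIF, the leukaemia inhibitory factor, was at 8.00, 7.73 and 8.56 in NCE and 9.02, 9.0 and 9.19 in CYGB+. The CYGB+ replicates lay close together (SD 0.11) and all above the NCE replicates, which were more scattered (SD 0.42). The difference was 0.98 ± 0.20, or 1.97-fold with a 95% interval of 1.41 to 2.74 (adjusted p = 0.0279). The call was lost without NCE replicate 1 or 2, at 0.93 and 0.79 (adjusted p = 0.0791 and 0.0887), and without CYGB+ replicate 2 or 3, at 1.01 and 0.92 (adjusted p = 0.0583 and 0.073). A second LIF probe was well above background on none of the NCE arrays and on 1 CYGB+ array, and was not tested.

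**Figure D3:**
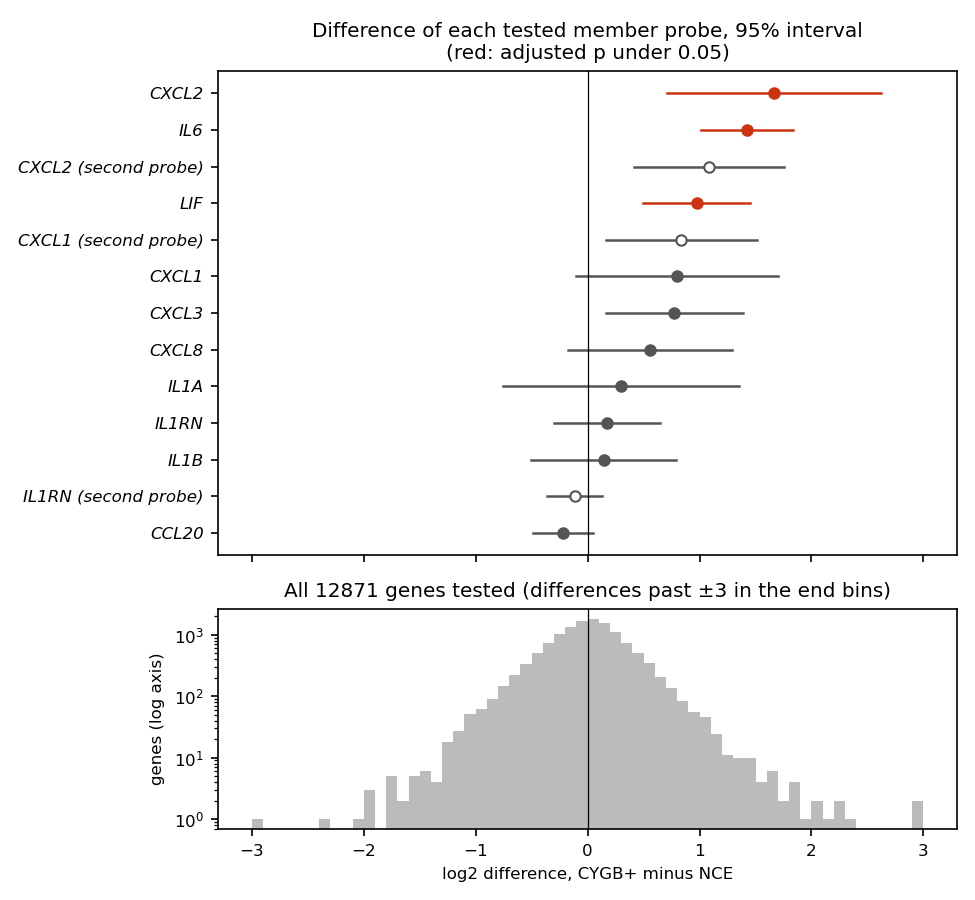
Upper panel, log2 difference (CYGB+ minus NCE) of the 13 member probes that passed the filter, with 95% intervals, open circles for second probes and red for an adjusted p under 0.05. Lower panel, the same difference for all 12871 genes (log count axis), where most genes lie near 0 and CXCL2 at 1.67 and IL6 at 1.42 fall in the upper tail.

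The median SD over the replicates of a group was 0.46 in NCE and 0.33 in CYGB+ for the 10 genes, against 0.12 and 0.17 over all genes tested. In CYGB+ the SDs of CCL20 (0.08), LIF (0.11) and IL1RN (0.13) were below that median of all genes. The variation also ran in the same direction from gene to gene. NCE replicate 3 was the highest NCE replicate in 10 of 10 genes, as it was in 33.7% of all genes, and CYGB+ replicate 3 was the highest CYGB+ replicate in 9 of 10, against 30.4%. NCE replicate 1 was the lowest NCE replicate in 8 of 10 genes, against 40.1%. The 3 largest deviations from a group mean, by size, were −1.0 for IL1A in NCE replicate 1, 0.77 for CXCL1 in NCE replicate 3 and −0.77 for CXCL2 in CYGB+ replicate 2. Replicates were taken on separate occasions of RNA extraction, and the part of those occasions in this spread was not tested.

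**Figure D4:**
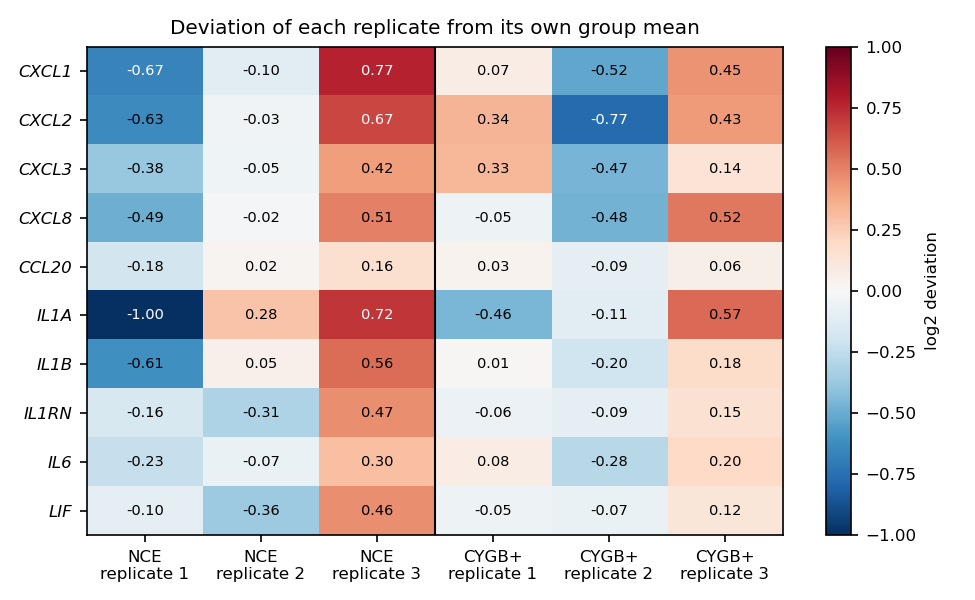
Log2 deviation of each biological replicate (columns) from the mean of its own group for each gene (rows), red above and blue below the mean. NCE replicate 3 is above its group mean in all 10 genes and CYGB+ replicate 3 in all 10.

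Slide and group overlapped almost wholly, so the single NCE array on slide 2 was set against the others. For NCE replicate 1, the value on slide 2 minus the mean of its 2 arrays on slide 1 was 0.38 for CXCL2, 0.10 for IL6 and −0.0043 for LIF, where the median size over all probes tested was 0.17. Within slide 2 alone, CYGB+ minus that NCE array was 2.05 for CXCL2, 1.59 for IL6 and 1.08 for LIF. That array is of NCE replicate 1, which lay below the NCE mean in all 3 genes, with deviations of −0.63, −0.23 and −0.10 for the mean of its 3 arrays. Of the genes not called, IL1A (1.39), CXCL1 (1.23), CXCL3 (1.08), CXCL8 (0.92) and IL1B (0.65) were also higher within slide 2 on their brightest probes. IL1RN (0.09) and CCL20 (−0.03) lay near that array. On these probes the lowest CYGB+ replicate exceeded the NCE array for IL1A (0.93), CXCL1 (0.71), CXCL3 (0.61), IL1B (0.45) and CXCL8 (0.44). It did not for IL1RN (−0.0040) or CCL20 (−0.12). For CXCL2, IL6 and LIF the lowest CYGB+ replicate exceeded the NCE array by 1.28, 1.32 and 1.01. With 1 NCE array none of the 3 passed in this fit (adjusted p = 0.262, 0.212 and 0.231). In a fit of all 15 arrays with slide as a term, IL6 passed at 1.51 (adjusted p = 0.00234), while CXCL2 at 1.82 and LIF at 1.05 did not (adjusted p = 0.108 and 0.0602).

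Receptors for these factors were detected only in part, and none was called. Of 12 receptors and receptor subunits, 8 passed the detection filter. Neither limma nor the methods' t-test called any of the 8. At an unadjusted p under 0.05 limma had 0 higher and 2 lower, where 15.8% and 16.1% of all genes were. CXCR1 and CXCR2, which bind CXCL1, CXCL2, CXCL3 and CXCL8, were below the filter, as were the decoy receptors ACKR1 and ACKR2. The largest differences were in the interleukin-1 system: IL1RAP, the accessory chain, differed by −0.46 (adjusted p = 0.107) and IL1R2, the decoy receptor, by −0.41 (adjusted p = 0.233, or 0.0453 with the replicate number as a block). IL1RAP passed without NCE replicate 1, at −0.62 (adjusted p = 0.0498). IL1R1 itself differed by −0.0049 and CCR6, the receptor of CCL20, by −0.20 (adjusted p = 0.986 and 0.179). Of the receptor chains of IL-6 and LIF, IL6R, IL6ST, LIFR and OSMR differed by 0.01, 0.05, −0.04 and −0.08 (adjusted p = 0.965, 0.817, 0.876 and 0.653).

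Around these genes, 9 related lists holding 124 genes were counted, of which 94 were tested, 6 were called higher and 3 lower, with a median difference of 0.07, where 6.57% and 6.67% of all genes were called. With the replicate number as a block 8 were called higher and 6 lower. Of 15 other chemokines 6 were tested and only CXCL14 was called, higher in CYGB+ (adjusted p = 0.0348, or 0.0529 with the block). It was not well above background on any NCE array but was on 5 of 6 CYGB+ arrays. The NCE level is thus only a bound, which puts CXCL14 at least 1.28-fold higher in CYGB+. It passed the filter only through the group where it was high, so its call is no independent support. CXCL5, another attractant of neutrophils, differed by −1.08 (adjusted p = 0.0985). Of 22 other interleukins, colony-stimulating factors and TNF, 11 were tested, and IL24, a member of the IL-10 family, was called higher by 3.49-fold, from 6.64, 6.48 and 6.80 to 8.24, 8.72 and 8.38 (adjusted p = 0.00358). Its groups were far apart and its call held in each of the 6 fits without a replicate. At an unadjusted limma p under 0.05, 5 of these 11 genes were higher and 0 lower. Of the 6 other chemokines tested 2 were higher and 3 lower, where 15.8% and 16.1% of all genes were. Of these, CXCL14 and CCL26 (higher) and CXCL10 (lower) passed the filter only through the group where they were high. So did IL36G among the interleukins counted as higher. These counts are therefore no independent support.

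Upstream of the members, 0 of 14 tested NF-kB subunits, kinases and inhibitors passed by limma or by the methods' t-test. At an unadjusted p under 0.05 limma had 5 higher and 1 lower, where 15.8% and 16.1% of all genes were. With the block 1 was called higher. Among 15 genes of the AP-1, C/EBP and STAT3 axis, the AP-1 subunits JUNB and FOSL2 were higher, by 0.64 ± 0.12 and 0.45 ± 0.11 (adjusted p = 0.0229 and 0.0451). At an unadjusted limma p under 0.05, 7 of these 15 were higher and 0 lower. In the lists that follow, these counts were 1 and 2 for IL-1 receptor signalling and 0 and 2 for IL-1 processing. They were 2 and 2 for the factors that act on cytokine transcripts and 3 and 2 for the other response genes. Of 12 tested genes of IL-1 receptor signalling only TRAF6, the ubiquitin ligase that links the receptor to NF-kB, was called, and it was lower by 1.57-fold (adjusted p = 0.0107). Of 11 tested genes of IL-1 processing and the inflammasome only AIM2, a sensor of cytosolic DNA, was called, lower by 1.95-fold (adjusted p = 0.0349). Among 7 factors that act on cytokine transcripts, ZC3H12A, an RNase that degrades IL6 mRNA, was higher by 1.82-fold (limma adjusted p = 0.0263). HNRNPD was lower by 1.57-fold (limma adjusted p = 0.0155). Of 10 tested other NF-kB response genes only PTGS2, which encodes cyclooxygenase-2, was called, at 7.41, 8.34 and 8.09 in NCE and 9.14, 9.65 and 10.45 in CYGB+, a difference of 1.80 ± 0.36 or 3.48-fold (adjusted p = 0.0248).

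Several of these calls were lost on leaving out a replicate, which also makes the fit smaller. Calls over all probes then numbered 232 to 1277 higher and 245 to 1140 lower, against 1234 and 1190. The differences of the genes below kept their sign, as for JUNB at 0.56 to 0.76 and TRAF6 at −0.70 to −0.59. JUNB lost its call without NCE replicate 1, 2 or 3 or CYGB+ replicate 2 (adjusted p = 0.0534 to 0.0977). FOSL2 lost it without NCE replicate 1, 2 or 3 or CYGB+ replicate 1 or 2 (adjusted p = 0.0634 to 0.157). AIM2 lost it without NCE replicate 1, 2 or 3 or CYGB+ replicate 2 or 3 (adjusted p = 0.0696 to 0.116), and CXCL14 without the same 5 (adjusted p = 0.0769 to 0.134). PTGS2 lost it without NCE replicate 1, 2 or 3 or CYGB+ replicate 2 (adjusted p = 0.0557 to 0.0798), and HNRNPD without NCE replicate 1, 2 or 3 (adjusted p = 0.052 to 0.0768). ZC3H12A lost it without NCE replicate 3 or CYGB+ replicate 2 or 3 (adjusted p = 0.061 to 0.0714), and TRAF6 without NCE replicate 3 (adjusted p = 0.0541).

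The 3 genes whose profile over the 6 biological replicates was most like that of CXCL2 were BNC1, ATP6V1G1 and L3HYPDH, with Pearson r of 0.994, 0.994 and 0.992. Each differed in the same direction, by 0.41, 0.65 and 0.38, and none was called (adjusted p = 0.0799, 0.0626 and 0.106). In all, 131 genes had an r over 0.95 with CXCL2 over these 6 points.

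**Figure D5:**
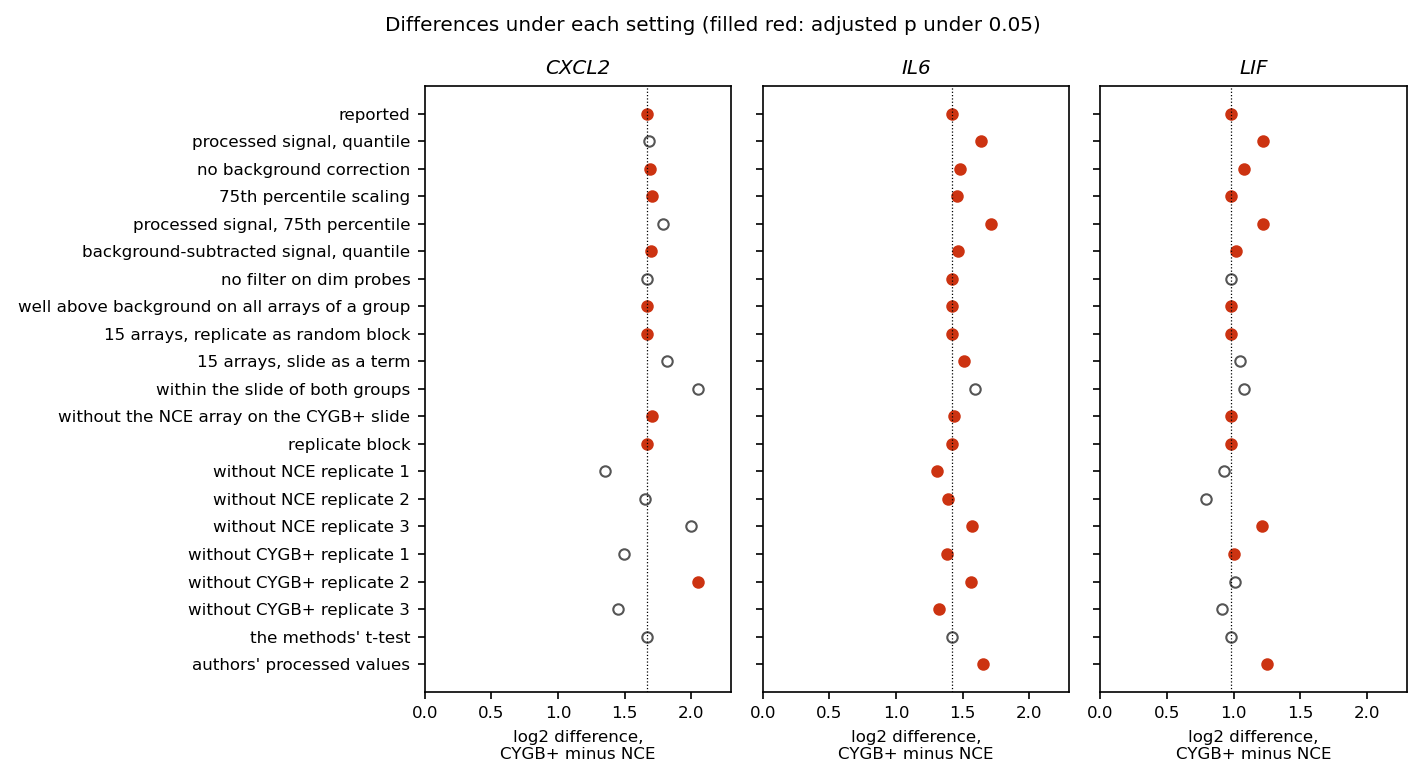
Log2 difference (CYGB+ minus NCE) of CXCL2, IL6 and LIF under each processing setting, with filled red points where the adjusted p was under 0.05, open points where it was not, and a dotted line at the reported value. The differences of all 3 genes stay above 0 in every setting plotted, from 1.35 to 2.05 for CXCL2, 1.31 to 1.71 for IL6 and 0.79 to 1.25 for LIF. The probe of CXCL2 shown is not in the authors' processed values and has no point there.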

How the data were processed

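The deposited scanner files give, for each of 62976 spots, intensity values extracted by the authors with Agilent Feature Extraction 10.7.3.1, with flags as 0 or 1 (other) per the file headers. Green median signal was used, since the labels name cyanine 3 for every sample. The study's methods name cyanine 5 for control cells, and the RNA in the red channel is not given in the labels. Median signal stood in for the mean signal that the design named. Local background was corrected by normexp (offset 50), arrays were quantile normalised, outlier spots were dropped, spots of a probe and arrays of a replicate were averaged, and log2 values were tested with limma 3.58.1 in R 4.3.3, adjusted by Benjamini-Hochberg. Normalised levels are relative, so no level of one probe was set against that of another. A probe was tested if well above background on most arrays of at least 1 group (a share over 0.5), 22179 probes in all. Since arrays were averaged, the number of biological replicates, 3 in each group, limits the precision.

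The authors' deposited value table holds natural log values of 15031 probes used here, 8 of them for these genes. It followed the natural log of the green processed signal with slopes of 0.81 to 1.00 and column medians of −0.16 to 0.18. Its centring stays unknown, and it served as an alternative. Probes were named through RefSeq accessions (25422 matched).

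Named were the 10 members with every probe, CYGB, detected receptors, up to 4 called non-overlapping genes of each related list, and the 3 genes most like the leading called member. CXCL5, CXCL10, CCL26, IL36G, ACKR1, ACKR2, CXCR1, CXCR2 and single markers were named after their values were seen. The members and lists were chosen with earlier results of these data known. Same-numbered replicates deviated together (r = 0.21, 0.23 and 0.30 over probes, each over 0.1), and the replicate number served as a block in an alternative fit. The reported fit had no block. Some unlike numbers deviated together too (NCE 1 with CYGB+ 2 at 0.21, NCE 2 with CYGB+ 3 at 0.29 and NCE 3 with CYGB+ 1 at 0.16, the others at −0.50 to −0.41), and NCE 2 was closer to CYGB+ 3 than to CYGB+ 2. The r values therefore do not show that the numbers pair the samples. The labels call the replicates biological, with RNA extracted on separate occasions, and do not describe their cultures. The fit was tested on simulated data. A marker of the leukocyte list is not reported here.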

Additional observations from a re-analysis of the deposited data

How the results depend on the processing

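Of the 254 alternative values of the member probes, 216 kept their direction and side of the threshold, 21 lost a call, 15 gained one and 2 turned without NCE replicate 1, IL1A (range −0.20 to 0.66 on leaving out a replicate) and IL1B (−0.16 to 0.42). The member count of 3 higher became 1 with no filter on dim probes, 5 with 15 arrays and replicate as a random block, 1 with slide as a term, 0 within the slide of both groups, 0 by the methods' t-test and 1 to 2 on leaving out a replicate. All probes called higher and lower numbered 1234 and 1190. They became 794 and 719 with 75th percentile scaling, 2472 and 2380 with the random block, 281 and 453 with slide as a term, 3 and 2 within the slide, 360 and 310 by the methods' t-test, 764 and 680 with the authors' processed values, and 232 to 1277 and 245 to 1140 on leaving out a replicate. With processed signal at the 75th percentile 756 were lower. Related list genes called higher and lower (6 and 3) became 14 and 8 with the random block, 2 and 0 with slide as a term, 0 and 0 within the slide, 3 and 1 by the methods' t-test, 2 and 1 with the authors' values, and 1 to 6 and 0 to 3 on leaving out a replicate. The replicate block left the member calls at 3 and gave 8 related genes higher and 6 lower. Among the genes named it changed the calls of the CXCL1 and CXCL2 second probes, IL1R2 and CXCL14 and no other. Turned values near 0 were CCR6 (0.013) with slide as a term and OSMR (0.024) within the slide. IL1R1 turned to 0.11 and 0.040 with processed signal (quantile, 75th percentile), 0.093 with no background correction, 0.018 with 75th percentile scaling, 0.039 with background-subtracted signal, 0.17 with slide as a term, 0.20 within the slide, 0.0076 with the authors' values, and −0.11 to 0.11 on leaving out a replicate. IL6R turned to −0.21 and −0.26 with processed signal, −0.032 with no background correction, −0.031 with background-subtracted signal, −0.014 with slide as a term, −0.052 with the authors' values, and −0.067 to 0.10 on leaving out a replicate. On leaving out a replicate IL6ST ran from −0.045 to 0.12 and LIFR from −0.14 to 0.071. The cause was not tested. Background-subtracted signal was chosen after seeing the data. Dim probes such as CCL20 are limited by signal over background.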

Other observations

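The red channel of the scans was not used above, because the labels do not say which RNA it held. Its log2 signal for the called members, taken above the median of each array, was not the same on all NCE arrays. For IL6 it was 4.28 to 4.80 on the first array of each NCE replicate, 2.31 to 3.66 on the other 6 NCE arrays and 4.14 to 5.84 on the 6 CYGB+ arrays. For CXCL2 it was 5.56 to 6.46, 2.83 to 5.37 and 5.34 to 6.22 on the same sets, and for LIF 2.55 to 3.77, 0.69 to 2.24 and 1.53 to 2.75. In green, the channel used, the first NCE arrays lay with the other NCE arrays, as for IL6 at 2.79 to 3.33 and 2.74 to 3.92 against 4.41 to 5.61 in CYGB+. The first arrays were set apart after these values were seen, and the cause was not tested.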
